A study of Mus musculus with 3 samples.

Results

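Livers of mice lacking TMX were set against livers of wild-type mice after the same treatment, which is used to cause inflammatory injury. How far each liver was injured was not known here. TMX, encoded by Tmx1, is a membrane protein of the endoplasmic reticulum with a thioredoxin domain, and belongs to the protein disulfide isomerase family, whose members make, break and reshuffle disulfide bonds of proteins passing through the secretory pathway. D-Galactosamine is taken up mainly by hepatocytes and traps their uridine nucleotides, which blocks transcription there and makes the liver highly sensitive to the tumour necrosis factor that macrophages release in response to lipopolysaccharide (LPS). In such an injury hepatocytes die, monocytes and neutrophils enter the tissue, and surviving hepatocytes turn from metabolic functions towards the acute phase response and regeneration.

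The comparison used 2 of the 3 two-colour microarrays of the series, 1 for each genotype. All mice were female C57BL/6. The treated mice had received 3 ng LPS together with 10 mg D-(+)-galactosamine (GalN) into the peritoneum, and their livers were taken 24 h later. One array held treated wild-type liver and the other held treated TMX-/- liver (called TMX-null here). The remaining array held untreated TMX-null liver and is given beside the others. The Cy3 dye labelled the liver named, and the Cy5 dye labelled liver of untreated wild-type mice on each array, so both sides of the comparison share that reference. It is not stated whether a sample came from 1 mouse or from several pooled, nor which part of Tmx1 was deleted, in which cells, or in how many lines. With 1 array per group there is no replicate of either liver, no test was possible, and no difference below has a replicate check.

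Of 23473 table rows, 14853 held a value on both treated arrays. The comparison was made over 10179 named genes, those valued on all 3 arrays. A gene's value is the centred log2 ratio to untreated wild-type liver, in which the median gene of each array lies at 0. The difference is the value of treated TMX-null liver minus that of treated wild-type liver, and a difference of 1 means 2-fold. The sources used here give neither the base of the logarithm nor the numerator of the ratio. The table was read as log2 of the named liver over the reference, a direction that is likely and rests on Tmx1 alone. In the other direction every "higher" would read "lower", and with a natural logarithm every fold would be raised to the power 1.44.

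Tmx1 itself had a value of 0.59 in treated wild-type liver, -2.96 in untreated TMX-null liver and -3.88 in treated TMX-null liver. Both TMX-null livers lay far below the treated wild-type liver, and the difference between the treated livers was -4.47 (22.2-fold lower), which ranked as the tenth lowest of all genes. A probe outside the deleted part would not check the genotype, and the probe's place was not known here. Of the 5 measured genes on each side of Tmx1 in gene order on chromosome 12, the untreated TMX-null values ran from -1.34 for 2700049A03Rik to 0.65 for Map4k5, and none came near that of Tmx1. The relatives Tmx2 and Tmx3 differed by -0.34 and -0.07 between the treated livers. The thioredoxin, disulfide isomerase and peroxiredoxin families had 40 measured genes, Tmx1 among them, with a median difference of -0.27. Of these 40, 35 lay within 2-fold, as did 8117 of all 10179 genes.

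A large part of the measured genes differed between the treated livers. At 2-fold, 981 of 10179 genes (9.64%) were higher in treated TMX-null liver and 1081 (10.6%) were lower. At 4-fold the counts were 134 higher and 227 lower, and at 8-fold 31 higher and 48 lower. Over genes, the SD was 0.48 in treated wild-type liver, 0.40 in untreated TMX-null liver and 1.04 in treated TMX-null liver. When the 2 treated arrays were given the same SD, 460 of the 981 higher and 588 of the 1081 lower genes still differed at least 2-fold in the same direction. Error could be judged only from genes with 2 probes: over 81 such genes the SD of a single probe was 0.59 for the difference, and 49 of the 81 had both probes on one side of 0. Of the 12 whose mean passed 2-fold, 7 had both probes past it. That SD leaves out differences between mice.

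Most of the 2-fold differences came with a value far from the reference in treated TMX-null liver and near it in treated wild-type liver. Against untreated wild-type liver, 463 genes (4.55%) lay at least 2-fold away in treated wild-type liver and 2727 (26.8%) in treated TMX-null liver. Of the 981 higher genes, 699 were at least 2-fold above the reference in TMX-null liver and within 2-fold in wild-type liver, 75 were 2-fold above it in both, and 32 were 2-fold below it in wild-type liver alone. Of the 1081 lower genes, 842 were at least 2-fold below the reference in TMX-null liver alone, 33 were 2-fold below it in both, and 34 were 2-fold above it in wild-type liver alone. A further 166 higher and 164 lower genes lay within 2-fold of the reference on both arrays. With a fixed 2-fold cut, this split depends on the spread of each array, which was wider in treated TMX-null liver (SD 1.04 against 0.48). The split was not made with the arrays at the same SD.

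**Figure D1:**
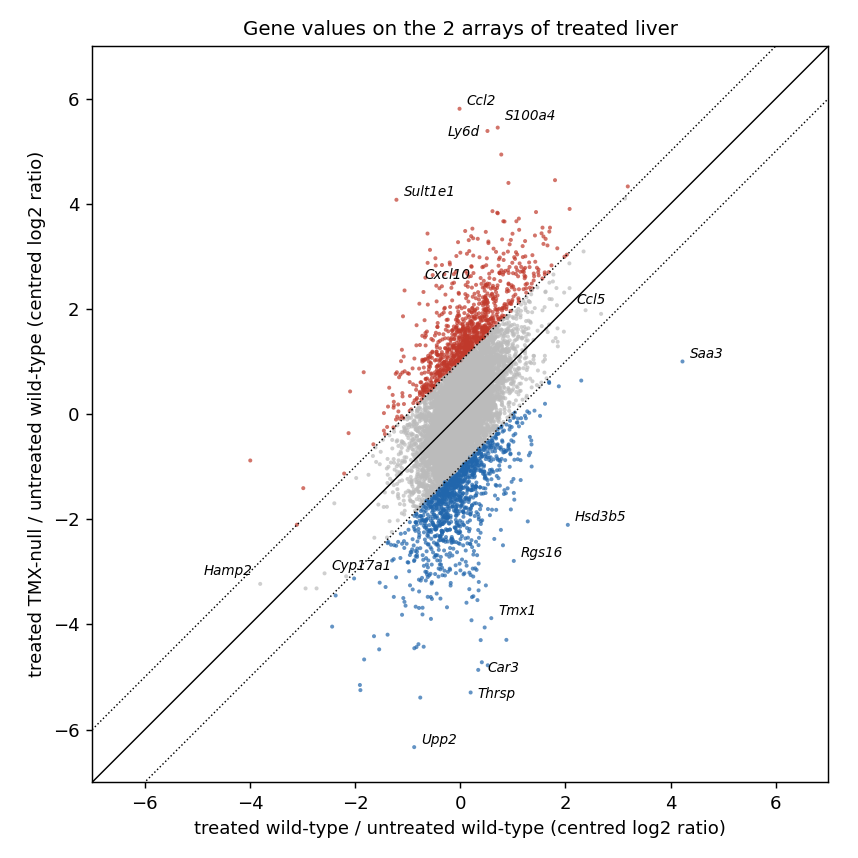
Each point is 1 of 10179 genes, plotted by its centred log2 ratio to untreated wild-type liver, with treated wild-type liver on the horizontal and treated TMX-null liver on the vertical axis. The solid line marks equal values and the dotted lines a 2-fold difference; 981 genes lie above the band (red) and 1081 below it (blue), and the cloud is taller (SD 1.04) than it is wide (SD 0.48).

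The genotypes were also compared with the untreated TMX-null value taken off. Subtracting it from the difference gives the response of TMX-null liver minus that of wild-type liver. On that measure 1000 genes (9.82%) were at least 2-fold higher and 1176 (11.6%) at least 2-fold lower. Of the 981 higher genes 659 were also 2-fold higher there, and of the 1081 lower genes 822 were also 2-fold lower. Only 9 and 5 of them changed sign. Both measures contain the 2 treated arrays, so they are not independent of each other.

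The 15 genes with the highest difference came from several fields. Ccl2, the main chemokine that draws monocytes, was at -0.01 in treated wild-type, 0.54 in untreated TMX-null and 5.81 in treated TMX-null liver, a difference of 5.82 (56.5-fold). Sult1e1, the sulfotransferase that inactivates oestrogens, was at -1.21, -0.81 and 4.07 in the same order, a difference of 5.29 (39.1-fold). Ly6d, a surface protein of epithelial and lymphoid cells, was at 0.52, -0.32 and 5.38, a difference of 4.87. All 3 were high on a single array, that of treated TMX-null liver. S100a4, a calcium-binding protein of monocytes and fibroblasts, differed by 4.74 and Tnfrsf12a, the receptor of the cytokine TWEAK, by 4.16. Next came the actin-associated Pdlim7 (4.06), the potassium channel subunit Kcne4 (3.70), the chemokine Cxcl10 (3.50), the stress-response gene Ier3 (3.48), the chromatin protein Hmga1 (3.44) and the co-chaperone Bag2 (3.41). Cpe, a carboxypeptidase that trims prohormones, followed at 3.39, then the lipid droplet protein Hilpda (3.31), the annexin Anxa2 (3.30) and the matricellular protein Ccn1 (3.29). With the 2 arrays scaled to the same SD, each of these 15 was still at least 2-fold higher, the smallest at 1.78.

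Among the 15 lowest were 5 steroid dehydrogenase genes and Tmx1 itself. Thrsp, a regulator of fatty acid synthesis, was at 0.20 in treated wild-type, -0.83 in untreated TMX-null and -5.29 in treated TMX-null liver, a difference of -5.49 (44.9-fold lower). Upp2, a uridine phosphorylase of liver, was at -0.88, -0.34 and -6.33 in the same order, a difference of -5.46. Car3, a carbonic anhydrase abundant in liver, muscle and fat, was at 0.34, -0.50 and -4.86, a difference of -5.21. In each case only treated TMX-null liver was more than 2-fold below the reference. Hsd3b3, Hsd3b4, Hsd3b6, Hsd3b1 and Hsd3b5, which encode steroid dehydrogenases, differed by -5.30, -5.17, -5.13, -4.69 and -4.15. The methyltransferase Inmt differed by -4.63, the predicted gene Gm867 by -4.52, Keg1 by -4.13, the transporter Abca8a by -3.86, Rgs16, a regulator of G protein signalling, by -3.81, and the aldehyde oxidase Aox3 by -3.74. Tmx1 was the remaining one. All 15 stayed at least 2-fold lower with the arrays scaled to the same SD, the smallest at -2.75.

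Gene lists described the pattern by function. For each list the median difference and the counts at 2-fold are given, to be read beside a median of 0.01 and shares of 9.64% higher and 10.6% lower over all genes. Because the lists were compiled with earlier results of these data known, their counts are a description.

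**Figure D2:**
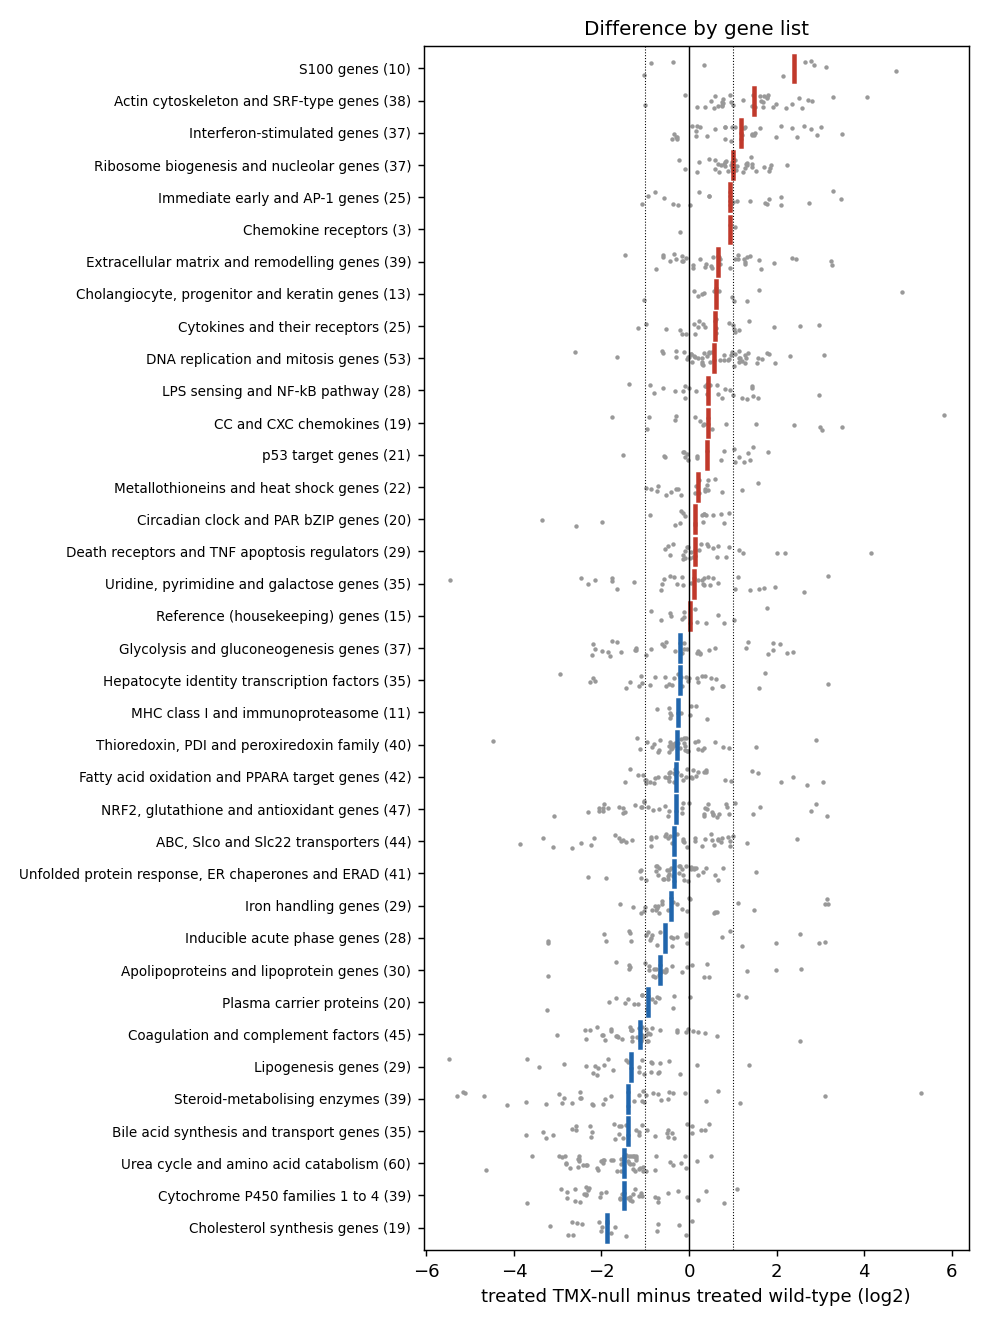
Grey points are the measured genes of each list (their number in brackets), coloured bars are the list medians, and the horizontal axis is the log2 difference, treated TMX-null minus treated wild-type liver. S100 genes have the highest median (2.40) and cholesterol synthesis genes the lowest (-1.88). With both arrays at the same SD the medians of the p53, metallothionein and heat shock, and reference lists come to -0.02, -0.29 and 0.21, and that of fatty acid oxidation to 0.01 after quantile normalization.

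Interferon-stimulated genes, the antiviral effectors and sensors that type I interferon switches on, were higher in treated TMX-null liver. Of 37 measured, 20 were at least 2-fold higher, 0 were 2-fold lower and 17 lay between, with a median difference of 1.19. Cxcl10, a chemokine for activated T cells, was at -0.62 in treated wild-type, 0.12 in untreated TMX-null and 2.88 in treated TMX-null liver, a difference of 3.50. Ifit3, of an antiviral RNA-binding family, was at -0.70, 0.05 and 2.32 in the same order, a difference of 3.02. Rsad2 (viperin), an antiviral enzyme, was at 0.13, 0.22 and 3.05, a difference of 2.92. For all 3 both other livers lay near or below the reference. Oas1a, an RNA-sensing synthetase, was different in this respect: it was already at 1.42 and 1.46 in treated wild-type and untreated TMX-null liver, and reached 3.40 in treated TMX-null liver. Oasl1 (2.78), Cmpk2 (2.62), the GTPase Mx1 (2.46), Ifi44 (2.36) and Usp18 (2.09), a brake on interferon signalling, were also higher. Of the factors that carry the interferon signal, Irf7 and Irf9 were close to the list median at 1.26 and 1.20, and Stat2 and Irf1 differed by 0.82 and 0.18. At the low end of the list stood Iigp1 (-0.39), Bst2 (-0.33), Ifitm2 (-0.30), Ifi27 (-0.28) and Ifitm3 (-0.27), none of them 2-fold apart. With the same SD on both arrays 16 of the 37 were at least 2-fold higher, with a median of 0.83.

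Promoter sequences of these genes are printed because they hold the letters that interferon-activated factors are known to bind. The motif searched was 2 copies of GAAA with 2 bases of any kind between them, a core of the interferon-stimulated response element (ISRE), on both strands, in the 250 bases before to 50 after each gene start, taken from RefSeq on GRCm38.p6. These letters were present for 14 of 24 interferon-stimulated genes with a promoter entry (58.3%), against 300 of 8244 measured genes with one (3.64%) and 1131 of all 32851 promoters of that length (3.44%). The genes were listed as interferon-stimulated, so this share describes the list and not these livers. Shown are 3 of the genes most different between the livers, and Bst2, which holds the letters and was not 2-fold apart. Capitals mark the matches, which on the other strand read TTTC in place of GAAA. The regions are chr5:92348840-92349139 (minus strand) for Cxcl10, chr19:34583279-34583578 (plus strand) for Ifit3, chr12:26456403-26456702 (minus strand) for Rsad2 and chr8:71537423-71537722 (minus strand) for Bst2, each printed 5′ to 3′ on its gene's strand.
Cxcl10: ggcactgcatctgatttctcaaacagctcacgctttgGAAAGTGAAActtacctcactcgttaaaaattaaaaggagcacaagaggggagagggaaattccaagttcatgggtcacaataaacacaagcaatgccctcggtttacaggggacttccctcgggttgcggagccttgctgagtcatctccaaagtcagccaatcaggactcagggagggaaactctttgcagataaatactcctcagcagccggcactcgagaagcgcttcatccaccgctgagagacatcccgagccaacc
Ifit3: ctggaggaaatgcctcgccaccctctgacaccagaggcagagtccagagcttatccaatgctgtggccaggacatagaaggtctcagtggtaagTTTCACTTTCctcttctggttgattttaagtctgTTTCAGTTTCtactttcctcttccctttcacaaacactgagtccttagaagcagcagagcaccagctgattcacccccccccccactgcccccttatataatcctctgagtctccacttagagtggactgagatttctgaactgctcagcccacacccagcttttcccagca
Rsad2: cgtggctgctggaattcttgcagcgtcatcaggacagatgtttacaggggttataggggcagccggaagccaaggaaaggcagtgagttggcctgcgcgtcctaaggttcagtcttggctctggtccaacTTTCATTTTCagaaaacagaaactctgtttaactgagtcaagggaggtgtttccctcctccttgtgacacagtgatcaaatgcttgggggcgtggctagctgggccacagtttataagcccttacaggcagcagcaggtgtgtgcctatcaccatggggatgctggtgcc
Bst2: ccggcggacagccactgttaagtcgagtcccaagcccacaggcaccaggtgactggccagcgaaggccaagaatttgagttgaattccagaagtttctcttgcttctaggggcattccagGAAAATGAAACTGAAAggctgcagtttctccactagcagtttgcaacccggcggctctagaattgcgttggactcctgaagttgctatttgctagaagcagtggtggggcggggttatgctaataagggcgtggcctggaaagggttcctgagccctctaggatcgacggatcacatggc

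Cxcl10 and Rsad2 each had 1 match, and Ifit3 and Bst2 each had 2, those of Bst2 overlapping. Within the list the letters did not divide the genes by their difference. The 14 genes with them had a median difference of 1.12, with 8 at least 2-fold higher and a range from -0.33 to 3.50. The 10 without them had a median of 1.08, with 5 at least 2-fold higher and a range from 0.18 to 2.78. A match is a run of letters and not a shown site.

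Genes of MHC class I antigen presentation, which interferons also induce, were not higher. Of 11 measured, 0 were 2-fold apart in either direction, with a median of -0.24. B2m, the light chain of MHC class I, was at -0.69 in treated wild-type, -0.44 in untreated TMX-null and -1.12 in treated TMX-null liver, a difference of -0.43. Tap1, the peptide transporter, had the highest difference of the list at 0.40, and the immunoproteasome subunits Psmb8 and Psmb9 differed by -0.43 and 0.15. Promoters of 3 of the 10 with an entry held the ISRE letters.

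Chemokines and cytokines held a few very different members. Within 2-fold lay 12 of 19 chemokines and 16 of 25 cytokines and receptors, smaller shares than over all genes (8117 of 10179). Among 19 CC and CXC chemokines 6 were at least 2-fold higher and 1 was lower, with a median of 0.43. Besides Ccl2 and Cxcl10, these were Ccl3 (3.04), Cxcl1 (3.00), Ccl6 (2.40) and Cxcl14 (1.54). Cxcl1, a neutrophil attractant, was at 0.33 in treated wild-type, 0.33 in untreated TMX-null and 3.33 in treated TMX-null liver, so the first 2 were level. Ccl5, a T cell attractant, was instead high in both treated livers, at 2.08 in wild-type and 2.39 in TMX-null, and differed by 0.32. Cxcl3 was the lower one, at -1.77. At the same SD 5 of the 19 were higher and 3 lower. Of 25 cytokines and receptors 8 were higher and 1 lower, with a median of 0.59, and at the same SD 5 and 0, with a median of 0.28. The receptor genes Csf3r (2.96) for granulocyte colony-stimulating factor and Osmr (1.93) for oncostatin M, and the interleukin 1 antagonist Il1rn (2.53), differed most. Il1b, a cytokine of activated macrophages, differed by 1.04, and Il18, the lower one, by -1.17.

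The LPS-sensing route, in which LBP and CD14 hand LPS to TLR4 and the adaptor MYD88 passes the signal to NF-kB, had 8 of 28 genes at least 2-fold higher and 1 lower, with a median of 0.44, and at the same SD 6 were higher and 1 lower, with a median of 0.17. Cd14 was at 0.49 in treated wild-type, 0.01 in untreated TMX-null and 3.46 in treated TMX-null liver, a difference of 2.98. The plasma protein gene Lbp was the lower one at -1.37. Tlr1 (1.57), Tlr2 (1.45) and the NF-kB subunit genes Nfkb1 (1.43), Nfkb2 (1.43) and Relb (1.32) were higher, while Tlr4 differed by 0.76, Rela by 0.47 and Nfkbia, the inhibitor that NF-kB itself induces, by -0.13. A kB-type motif was searched as a pattern of letters, with some places open, on both strands of the same promoter stretches. It was present for 10 of the 20 list genes with a promoter entry (50%) and for 977 of 8244 measured genes (11.9%). The genes were listed for this pathway, and a match is not a shown site. Among 29 death receptor and apoptosis genes the median was 0.14 and 5 were at least 2-fold higher. These were Tnfrsf12a, Casp4 (2.20), the necroptosis effector Mlkl (2.02), Casp8 (1.23) and Birc5 (1.15). The tumour necrosis factor receptor gene Tnfrsf1a differed by 0.03, Fas by -0.15, Ripk3 by -0.09 and Cflar by -0.02.

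Acute phase genes, which hepatocytes switch on during inflammation, were divided, with 5 of 28 at least 2-fold higher, 7 lower and a median of -0.54. Saa3, an inducible serum amyloid, was at 4.22 in treated wild-type, 0.22 in untreated TMX-null and 1.0 in treated TMX-null liver, a difference of -3.22. Hamp, which encodes the iron hormone hepcidin, was at -3.99, -1.27 and -0.88 in the same order, a difference of 3.11. For both genes treated wild-type liver was the one farthest from the reference. The related Hamp2 was low in both treated livers, at -3.80 and -3.23. Saa4 (-3.22), Saa2 (-1.93), Crp (-1.89) and Fgg (-1.33) were lower in TMX-null liver. Orm2 and Lcn2, which treated wild-type liver held at 2.38 and 1.35, differed by -0.41 and 0.93. The higher ones besides Hamp were Cd14, Il1rn, Serpina3g (1.99) and Mt2 (1.22).

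**Figure D3:**
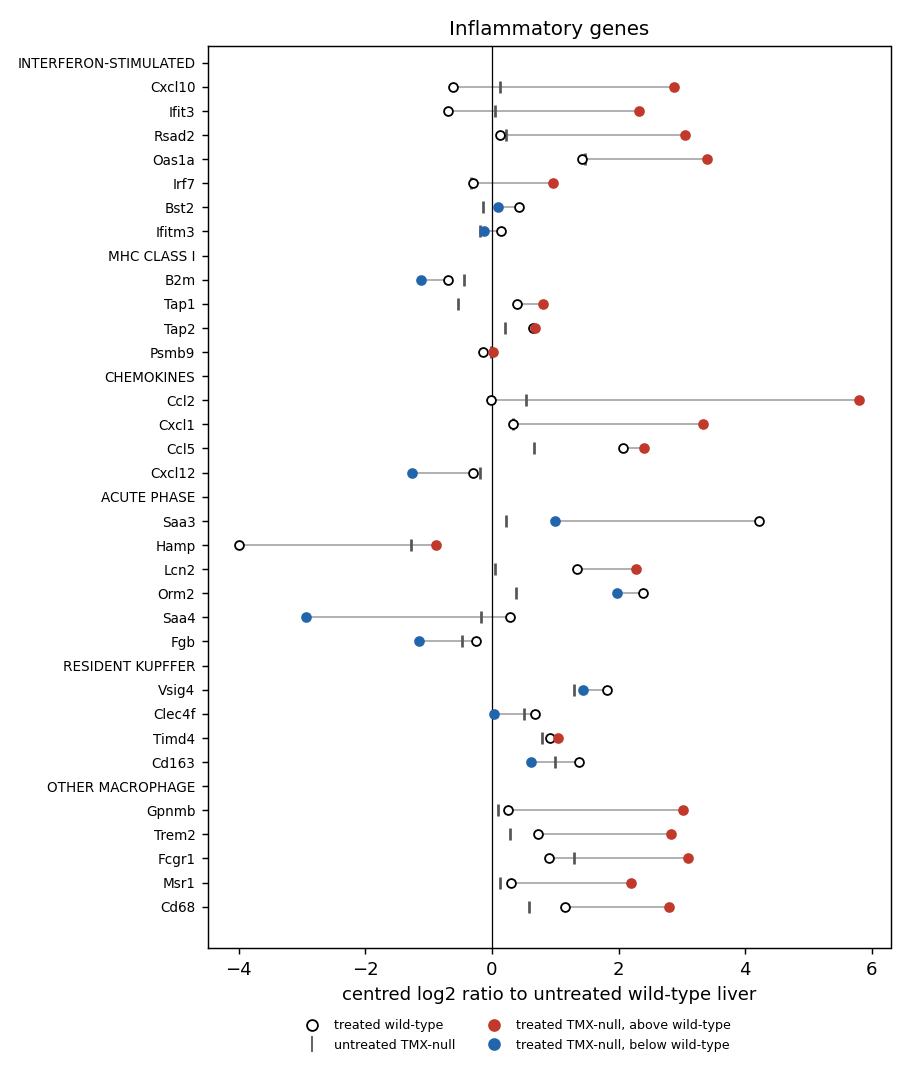
Each row is a gene, and the horizontal axis is the centred log2 ratio to untreated wild-type liver in treated wild-type (open circle), untreated TMX-null (tick) and treated TMX-null liver (filled circle, red where higher and blue where lower than treated wild-type). Ccl2 has the longest bar (5.82), Saa3 runs the other way (-3.22), and the MHC class I genes and resident Kupffer cell genes have short bars (-0.75 to 0.40). The bars do not take off the untreated TMX-null value. With it taken off, Vsig4, Clec4f and Cd163 differ by -1.66, -1.16 and -1.75.

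Markers of cell types were examined beside these genes, since the tissue is a mixture. In bulk liver, fewer cells of a type and less RNA per cell cannot be told apart. Of 10 monocyte markers 6 were at least 2-fold higher and 0 lower (median 1.32), led by S100a4, Lgals3 (3.25) and Plac8 (1.68). At the same SD 3 were higher, with a median of 0.48. Ly6c1, a member of the monocyte list, was at 0.98 in treated wild-type, 0.93 in untreated TMX-null and 2.41 in treated TMX-null liver. Of 21 macrophage markers 6 were higher and 0 lower, with a median of 0.37, and at the same SD 2 were higher and 5 lower, with a median of -0.41 (-0.32 after quantile normalization). Within them, Gpnmb (2.77), Fcgr1 (2.18), Trem2 (2.09), Msr1 (1.91) and Cd68 (1.64) were higher, while Vsig4, Clec4f, Timd4 and Cd163, which mark resident Kupffer cells, differed by -0.37, -0.66, 0.12 and -0.75. Vsig4 was at 1.81, 1.30 and 1.45 in treated wild-type, untreated TMX-null and treated TMX-null liver, thus above the reference on all 3 arrays. With the untreated TMX-null value taken off, Vsig4, Clec4f and Cd163 differed by -1.66, -1.16 and -1.75, each at least 2-fold lower. On that measure the median of the 21 macrophage markers was -0.18. Fcgr1 came to 0.88 there, while Gpnmb, Trem2 and Msr1 stayed at least 2-fold higher at 2.67, 1.82 and 1.78.

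Of 8 neutrophil markers 3 were at least 2-fold higher and 3 lower, with a median of 0.90, and at the same SD 2 were higher and 2 lower, with a median of -0.01. S100a8 and S100a9, which form calprotectin, were at 0.82 and 1.80 in treated wild-type and at 3.67 and 4.45 in treated TMX-null liver. Ly6g, the marker used to identify mouse neutrophils, went the other way, from -0.89 to -2.50, and Cebpe differed by -2.21. T and NK cell markers had a median of -0.03 over 11 genes, which turned to 0.03 with centring on reference genes and came to -0.56 at the same SD. Their median was already 0.78 in untreated TMX-null liver, and with that array's values taken off the median difference was -0.95. B cell markers had a median of 0.06 over 6 genes. Stellate cell and fibroblast markers had a median of 0.94, with 7 of 16 higher and 0 lower. At the same SD 0 of the 16 were higher and 2 lower, with a median of 0.05. Endothelial markers had 0.21 over 17 genes, with Lyve1 at 1.58 and Pecam1 at 1.17. Dendritic cell markers had 0.23 over 9 genes (0.01 at the same SD), cholangiocyte markers 0.69 over 7, platelet markers 0.69 over 3 (-0.04 at the same SD), erythroid markers -0.40 over 7 (-0.16 at the same SD), and markers of pancreas, muscle and fat -0.49 over 6 (-0.18 at the same SD). The part of such cells in the differences of other genes was not tested.

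Of 24 hepatocyte markers 20 had a value on all 3 arrays, although ratios do not show how strongly a gene was expressed. Their median was -0.32 in treated wild-type, -0.41 in untreated TMX-null and -1.62 in treated TMX-null liver. Of the 20, 10 were at least 2-fold lower in treated TMX-null than in treated wild-type liver and 0 were higher, with a median of -1.01, and at the same SD 5 were lower and 1 higher, with a median of -0.64. Among plasma protein genes, Alb (albumin) was at -1.06 and -1.84 in the treated wild-type and TMX-null livers, a difference of -0.78. Trf (transferrin) was at -0.69 and -0.66 in the same order, a difference of 0.03, and Apoa1 differed by -0.67. The 4 lowest of the list were the enzyme genes Cyp2e1 (-2.93), Hpd (-2.81), Cyp3a11 (-2.59) and Tat (-2.50).

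S100 and cytoskeletal genes had the highest list medians. Of 10 S100 genes, which encode small calcium-binding proteins, 6 were at least 2-fold higher and 1 lower, with a median of 2.40, and at the same SD 5 were higher and 0 lower, with a median of 0.88. S100a11 (3.12), S100a6 (2.79) and S100a10 (2.16), which partner with annexins, joined the 3 already named, and S100a13 was lower at -1.04. Of 38 actin cytoskeleton genes of the kind that serum response factor controls, 23 were higher and 1 lower, with a median of 1.49, and at the same SD 14 were higher and 1 lower, with a median of 0.85. Actb, the common cytoplasmic actin, was at 0.23 in treated wild-type, 0.00 in untreated TMX-null and 2.02 in treated TMX-null liver, a difference of 1.79. Acta2 (2.35) and Tagln (2.23), smooth muscle genes, Vim (2.72), the intermediate filament of mesenchymal cells, Tubb6 (2.82) and Capg (2.59) were also higher. All 4 measured tropomyosin genes were at least 2-fold higher, with differences from 1.23 to 1.99 and a median that stayed above 0 under every scaling tried. Annexin genes had 4 of 8 higher and 0 lower. Pdlim1, at -1.0, was the lower member of the list.

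Of 39 matrix and remodelling genes 15 were at least 2-fold higher and 1 was lower (median 0.67), and at the same SD 8 were higher and 0 lower, with a median of 0.26. Plaur, the urokinase receptor, was at -0.66 in treated wild-type, -0.08 in untreated TMX-null and 2.59 in treated TMX-null liver, a difference of 3.26. Mmp13 (2.44), the basement membrane protein Nid1 (2.35) and Col4a2 (1.94) followed, while the fibrillar collagen genes Col1a2 and Col3a1 differed by 0.69 and 0.94. Mmp13 was already at 1.77 in untreated TMX-null liver, and with that value taken off it differed by 0.67. Mmp19 was the lower one, at -1.47. Of 25 immediate early and AP-1 genes 10 were higher and 1 lower, with a median of 0.94, and at the same SD 8 and 2, with a median of 0.36. Ccn2 (2.75), Jun (2.11), Klf6 (2.11), Myc (1.84) and Hbegf (1.79) were higher, whereas Egr1 was at 2.68 and 1.91 in the treated wild-type and TMX-null livers, a difference of -0.77. Zfp36, which destabilises cytokine mRNAs, was the lower one at -1.07.

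Genes of growth and division were higher on balance. All but 2 of 37 ribosome biogenesis genes lay above 0, 19 were at least 2-fold higher and 0 lower, with a median of 1.01. Nle1 differed by 2.25, the small nucleolar RNP proteins Gar1 and Nhp2 by 1.88 and 1.83, and Npm1 (nucleophosmin) by 1.41. At the same SD 6 of the 37 were 2-fold higher, with a median of 0.58. Of 53 replication and mitosis genes 19 were higher and 2 lower, with a median of 0.58, and at the same SD 8 were higher and 3 lower, with a median of 0.37. Of the 6 Mcm genes of the replicative helicase, 4 were at least 2-fold higher, led by Mcm4 at 2.31 and Mcm3 at 1.96. Pole2, a polymerase subunit, was at -0.07 in treated wild-type, 0.91 in untreated TMX-null and 3.01 in treated TMX-null liver. The proliferation markers Mki67 and Top2a differed by -0.03 and -0.30, and Mcm10 (-2.60) and Tk1 (-1.65) were the lower ones. The p53 targets had 8 of 21 higher and 1 lower, with a median of 0.42, but 1 higher and 3 lower at the same SD, with a median of -0.02. Cdkn1a (p21), a cell cycle inhibitor, was high in both treated livers, at 3.18 and 4.33.

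Hepatocyte detoxification and steroid genes were lower. Of 39 cytochrome P450 genes of families 1 to 4, 29 were at least 2-fold lower and 1 higher, with a median of -1.49, and at the same SD 18 were lower and 0 higher, with a median of -0.82. Cyp1a2, which metabolises caffeine, was at 0.25 in treated wild-type, -0.25 in untreated TMX-null and -3.46 in treated TMX-null liver, a difference of -3.71. All 8 Cyp2c genes, all 5 Cyp3a genes and all 6 Ugt2b genes measured were at least 2-fold lower, with medians of -2.15, -2.35 and -2.47 that stayed below 0 under every scaling tried. These families hold near-identical copies, whose probes may share signal. Cyp4f18, an enzyme of leukocytes, was the higher one at 1.09, and Por, the reductase that P450 enzymes share, differed by -0.25.

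Of 39 steroid-metabolising genes 26 were lower and 3 higher, with a median of -1.39, and at the same SD 21 and 4, with a median of -1.15. Genes Hsd3b1 to Hsd3b6 were all lower, from -2.68 for Hsd3b2 to -5.30 for Hsd3b3, and this family too is made of near-identical copies. Hsd3b5, a liver enzyme known for its higher level in male mice, was at 2.04 in treated wild-type, -0.63 in untreated TMX-null and -2.11 in treated TMX-null liver. The reductases Akr1d1 and Akr1c6 differed by -3.73 and -3.27. Higher were Sult1e1, Akr1c18 (3.10) and Hsd17b11 (1.16). Cyp17a1 was low in both treated livers, at -2.58 and -3.03.

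Bile acid genes had 22 of 35 at least 2-fold lower and 0 higher, with a median of -1.39, and at the same SD 15 lower, with a median of -0.81. Cyp7a1, which sets the pace of bile acid synthesis, was at -1.64 in treated wild-type, -0.34 in untreated TMX-null and -4.22 in treated TMX-null liver, a difference of -2.58. It was thus below the reference in both treated livers and lowest in TMX-null liver, as was Cyp8b1 at -2.44 and -4.04. The uptake carriers Slco1b2 (-3.34), Slco1a4 (-3.11) and Slc10a1 (-2.57) and the export pump Abcb11 (-2.68) were lower, but the exporters Abcb4, Abcc2 and Abcc3 differed by -0.04, -0.39 and 0.37. The bile acid receptor gene Nr1h4 differed by -0.35 and its target Nr0b2 by -2.26. Over 44 ABC, Slco and Slc22 transporters 13 were lower and 2 higher, with a median of -0.33 (11 and 4 at the same SD), and Abcc1, an exporter of glutathione conjugates, stood highest at 2.46.

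Sterol and fatty acid synthesis were lower together. Of 19 cholesterol genes 14 were at least 2-fold lower and 0 higher, with a median of -1.88, and at the same SD 11 were lower. Idi1, an isomerase of the mevalonate pathway, was at 0.24 in treated wild-type, -0.71 in untreated TMX-null and -2.94 in treated TMX-null liver, a difference of -3.17. The list median in untreated TMX-null liver was already -0.42, and the median difference of the responses was -1.42. Srebf2, the gene of the factor that drives the pathway, differed by -0.23 and its partner Scap by -0.74, while the feedback gene Insig1 differed by -2.75. Of 29 lipogenesis genes 19 were lower and 1 higher, with a median of -1.33, and at the same SD 13 were lower and 0 higher, with a median of -0.90. After Thrsp the lowest were Fasn (-3.70), Acss2 (-3.42) and Elovl6 (-2.86), and the controlling factors Mlxipl and Srebf1 differed by -2.19 and -2.15. Scd1, the main desaturase of liver, differed by -1.15, and Scd2, its relative in other tissues, was the higher one at 1.37.

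Among 42 fatty acid oxidation genes, targets of the nuclear receptor PPARA, 32 lay within 2-fold, against 8117 of 10179 genes in all. Of the 42, 6 were higher and 4 lower, and the median was -0.29 (0.01 after quantile normalization). At the same SD 8 were higher and 2 lower. Cpt1a, the gate of mitochondrial import, was at -0.76 in treated wild-type, 0.04 in untreated TMX-null and -0.37 in treated TMX-null liver. The higher ones were the lipid droplet gene Plin2 (3.07), Ehhadh (2.70), Pdk4 (2.37), the fatty acid carrier Cd36 (2.11), Acot3 (1.58) and Cidec (1.44). Echs1 (-1.46), Rxra (-1.34), Decr2 (-1.16) and Acsl1 (-1.05) were the lower ones.

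Amino acid catabolism was lower almost throughout. Of 60 measured genes 50 were at least 2-fold lower and 0 higher, and the median difference was -1.48. Cth, which makes cysteine, was at -0.83 in treated wild-type, -0.88 in untreated TMX-null and -4.43 in treated TMX-null liver, a difference of -3.60. Hgd (-2.98), Mat1a (-2.90), Oat (-2.84), Hpd (-2.81) and Haao (-2.81) followed Inmt and Cth. Of the urea cycle genes, Asl was at -2.41, Cps1 at -2.11, Otc at -1.64 and Arg1 at -1.12. Glul (glutamine synthetase), which only the hepatocytes around the central vein express strongly, was above the reference in treated wild-type (1.15) and untreated TMX-null liver (1.18) and below it in treated TMX-null liver (-0.88). The mitochondrial Glud1 and Gldc differed by -0.06 and -0.09, and Asrgl1 stood highest at 0.51. At the same SD 22 of the 60 were lower, with a median of -0.84.

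Of 37 genes of glycolysis and gluconeogenesis 8 were higher and 12 lower, with a median of -0.20, and at the same SD 4 were higher and 10 lower, with a median of -0.36. Among the higher were the glucose carrier Slc2a1 at 2.23, Hk2 at 2.07, Fbp2 at 1.92, Pkm at 1.91, Pfkp at 1.81 and Aldoa at 1.35. Pkm, a pyruvate kinase, was at 1.04 in treated wild-type, 0.92 in untreated TMX-null and 2.95 in treated TMX-null liver. Among the lower were Gys2, the glycogen synthase of liver, at -2.21, Pygl, the glycogen phosphorylase of liver, at -2.19, the carrier Slc2a2 at -1.86, Pck1 at -1.82 and Slc37a4 at -1.77. The housekeeping enzyme genes Gapdh and Pgk1 differed by -0.11 and -0.16. Pygl is also the nearest measured neighbour of Tmx1 on 1 side and Frmd6, at 1.81, on the other.

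Pyrimidine genes are of interest because galactosamine acts through uridine. Of 35 genes of pyrimidine and galactose metabolism 8 were higher and 8 lower, with a median of 0.12, and at the same SD 5 and 6. Dpyd, the first enzyme of pyrimidine breakdown, was at -0.96 in treated wild-type, -0.04 in untreated TMX-null and -3.26 in treated TMX-null liver, and the later enzymes Dpys and Upb1 differed by -2.47 and -1.76. Among the higher members were Ctps, which makes CTP from UTP, at 3.18, Cad, the start of the de novo route, at 1.96 and the salvage kinase Dck at 1.72. The 2 uridine phosphorylases went opposite ways, Upp1 at 1.39 and Upp2 at -5.46. Galk1, the kinase that first acts on galactosamine, differed by 0.04, and Galt, the next step, by -1.27.

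**Figure D4:**
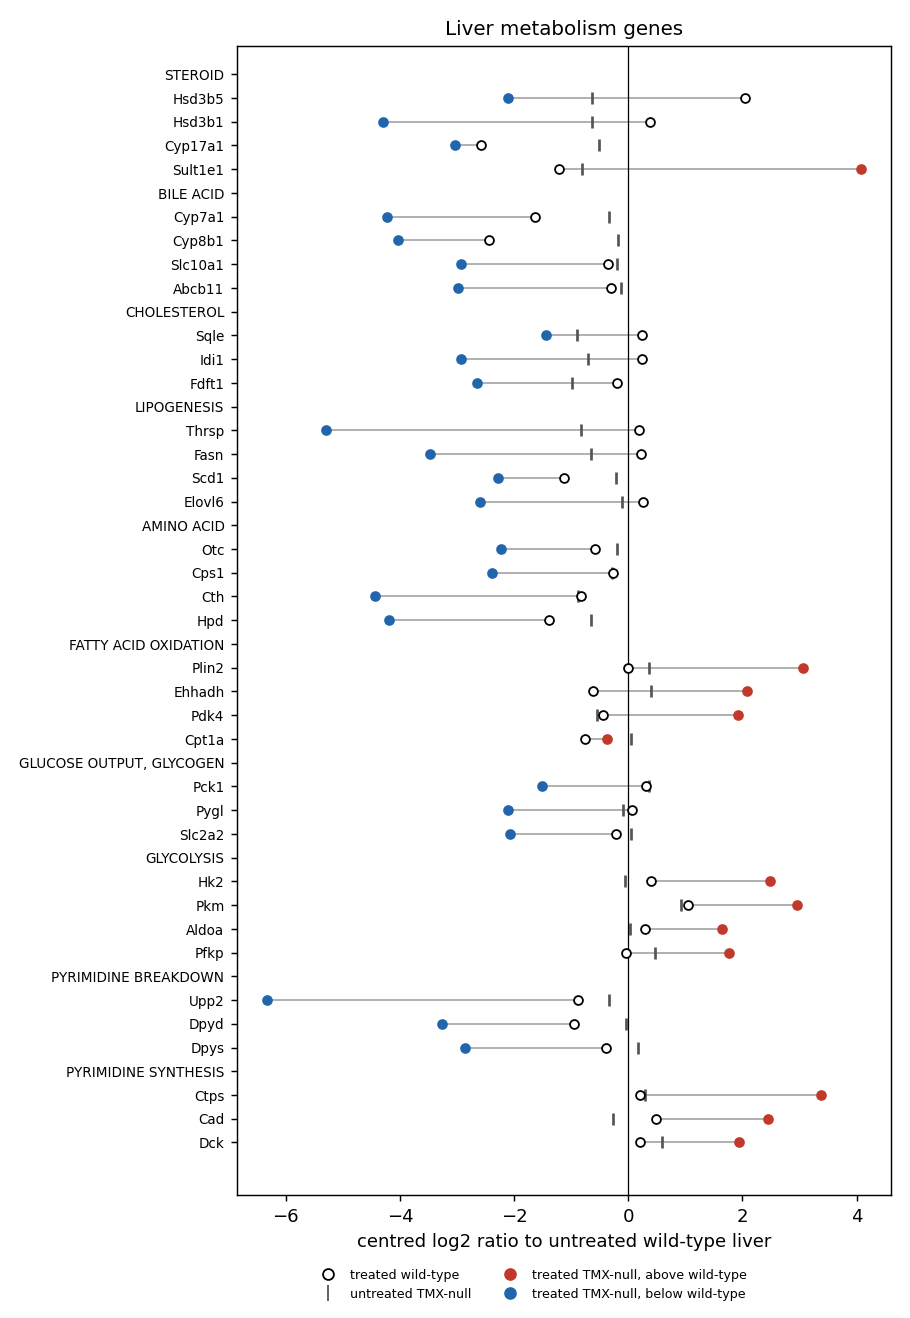
Rows are genes of liver metabolism, and the horizontal axis is the centred log2 ratio to untreated wild-type liver in treated wild-type (open circle), untreated TMX-null (tick) and treated TMX-null liver (filled circle, red where higher and blue where lower than treated wild-type). Upp2 reaches the lowest value (-6.33), Cyp17a1, Cyp7a1 and Cyp8b1 are low in both treated livers, and Plin2, Pkm and Ctps lie at 2.95 to 3.38 in treated TMX-null liver.

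Of 45 coagulation and complement genes, most of which encode plasma proteins secreted by hepatocytes, 28 were at least 2-fold lower and 1 higher, with a median of -1.13, and at the same SD 14 were lower and 1 higher, with a median of -0.67. C8b (-3.02), C8a (-2.37), Hrg (-2.35) and Mbl2 (-2.25) were lowest. F3, the tissue factor that starts coagulation, was at -2.09 in treated wild-type, -0.03 in untreated TMX-null and 0.43 in treated TMX-null liver, and was the higher one at 2.53. C1qa, C1qb and C1qc, complement genes that macrophages express, differed by -0.03, 0.37 and 0.20. Plasma carriers had a median of -0.95 over 20 genes, with 9 lower and 2 higher, but at the same SD 2 were lower and 1 higher, with a median of -0.54. Apolipoprotein and lipoprotein genes had a median of -0.67 over 30, with 5 lower and 3 higher, and at the same SD 1 lower and 3 higher, with a median of -0.22. Serpina6, the corticosteroid-binding globulin, was at -1.91, -0.83 and -5.15, a difference of -3.24, and Serpina7, the thyroxine-binding globulin, was at 2.30 and 0.64 in the treated wild-type and TMX-null livers. Apoa4 (2.57), the lipase Lpl (1.98) and Apoc2 (1.33) were the higher lipoprotein genes.

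Among 35 transcription factors of hepatocyte identity 23 lay within 2-fold, a smaller share than over all genes (8117 of 10179). Of the 35, 9 were lower (25.7%, against 10.6% of all genes) and 3 higher (8.57%, against 9.64%), with a median of -0.21. At the same SD 7 were lower and 6 higher. Hnf4a, the master regulator of the hepatocyte programme, was at -0.04 in treated wild-type, 0.04 in untreated TMX-null and -0.28 in treated TMX-null liver, a difference of -0.24. Foxa1 and Foxa3 differed by -0.45 and -0.18, and Cebpa by -0.78. The lower ones were headed by Klf15 (-2.94), Nr0b2, Mlxipl and Srebf1. The higher ones were Id1 (3.18), Id2 (1.74) and Id3 (1.59), which block other transcription factors by pairing with them. Among 20 clock genes 3 were lower and 0 higher, with a median of 0.14. The clock output gene Dbp was at -1.90, -0.73 and -5.25, a difference of -3.35, and Usp2 and Tef differed by -2.57 and -2.0. Arntl (Bmal1), the core clock activator, was high in both treated livers, at 2.07 and 2.87.

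Because TMX is a protein of the endoplasmic reticulum, genes of the unfolded protein response, which that compartment sends out when proteins misfold, were listed apart. Of 41, 5 were at least 2-fold lower and 1 higher, with a median of -0.35, and at the same SD 2 and 0, with a median of -0.58. Hspa5, which encodes the chaperone BiP and is the usual marker of the response, was at 0.80 in treated wild-type, 0.36 in untreated TMX-null and 0.91 in treated TMX-null liver, a difference of 0.12. Ddit3 (CHOP), Atf4 and Xbp1 differed by 0.38, 0.05 and 0.16. The degradation genes Herpud1 (-2.31) and Sel1l (-1.90) were lowest, followed by Ero1b (-1.13), and the reductase gene Dnajc10 was the higher one at 1.52. Pdia6, Pdia4, P4hb and Pdia3, of the disulfide isomerase family to which TMX belongs, differed by -0.71, -0.69, -0.45 and -0.42.

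Antioxidant genes were divided. Of 47, 6 were higher and 17 lower, with a median of -0.31 (6 and 13 at the same SD). Hmox1 (heme oxygenase), an inducible target of the factor NRF2, was at 0.16 in treated wild-type, 0.21 in untreated TMX-null and 3.31 in treated TMX-null liver, a difference of 3.15. Srxn1 (2.90), Akr1b8 (2.78), Cbr3 (1.62), Gpx3 (1.47) and Nqo1 (1.06) were the others that were higher. Of the glutathione S-transferases, 5 of 6 Gstm genes were at least 2-fold lower, with a median of -1.96, and Gsta3 and Gsta2 differed by -3.08 and 0.34. Cat (catalase) differed by -2.07. Metallothionein and heat shock genes had a median of 0.20, with 2 of 22 higher and 0 lower, and at the same SD a median of -0.29, with 1 higher and 4 lower. Hsp90aa1 and Hspb1 were up in both treated livers, at 1.84 and 1.56 in wild-type and 2.07 and 1.97 in TMX-null. Iron genes had 5 of 29 higher and 4 lower, with a median of -0.40, and the iron exporter Slc40a1, the target of hepcidin, differed by -0.06.

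Some genes were alike in both treated livers. Of the genes at least 4-fold from the reference on both treated arrays, 16 had the same sign. The 8 with the smallest difference were Ccl5, Krtap4-2 (-0.37), Cyp17a1 (-0.45), Hamp2 (0.58), Gpcpd1 (-0.58), Tcte3 (0.75), Arntl (0.79) and Apoa2 (-0.92). In untreated TMX-null liver these 8 lay between -1.42 for Apoa2 and 0.67 for Ccl5. Gpcpd1, a phosphodiesterase of glycerophosphocholine, was at -2.73 and -3.31 in treated wild-type and TMX-null liver, and Krtap4-2, a keratin-associated protein gene, at -2.94 and -3.31.

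Other genes had opposite signs. In 7 genes treated wild-type liver was at least 2-fold above and treated TMX-null liver at least 2-fold below the reference. The 5 with the largest difference were Hsd3b5, Rgs16, Ugt2b37, Adh4 and Mtus1. Rgs16 was at 1.02 in treated wild-type, 1.43 in untreated TMX-null and -2.79 in treated TMX-null liver, so both other livers were on the same side. Ugt2b37, a glucuronosyltransferase, was at 1.28, 0.13 and -2.04, and the alcohol dehydrogenase Adh4 at 1.03, 0.13 and -1.63. In 6 genes the signs were the other way, led by Sult1e1, Bag2, Tuft1, Lrp12 and Bmper. Bag2 was at -1.06, 0.09 and 2.35, and Tuft1 at -1.09, -0.19 and 1.86. Bmper, an extracellular regulator of bone morphogenetic proteins, was at -1.08, -0.28 and 1.09. All of these had 1 probe.

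Genes without a value in untreated TMX-null liver could still be compared between the treated livers. There were 777 such genes, of which 125 (16.1%) were at least 2-fold higher and 60 (7.72%) lower. Smpd3, a sphingomyelinase, was at 0.47 and 5.14 in the treated wild-type and TMX-null livers, a difference of 4.67, and the elongase Elovl7 was at 0.63 and 4.81. Ccl7, another monocyte attractant, was at 2.52 and 5.96, thus high in both, with a difference of 3.44. The macrophage elastase Mmp12 (2.84) and Timp1 (2.28), an inhibitor of matrix proteases, were higher, and Tgfb1, a cytokine of fibrosis, was at 0.80 and -0.94, a difference of -1.74.

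A blank cell gives no difference, and the rule behind blanks is not given in the sources used here. Treated TMX-null liver alone held a value in 1334 rows, which named 799 genes with no difference from another row, and 334 of them were at least 2-fold above the reference. Treated wild-type liver alone held one in 2037 rows naming 1382 genes, with 414 at least 2-fold above. These are 41.8% and 30.0% of such genes. Only 8 and 19 were at least 2-fold below, and the medians were 0.80 and 0.53. Genes valued on 1 treated array alone thus lay mostly above the reference, whichever array it was. Over all 10179 genes compared, 26.8% in treated TMX-null and 4.55% in treated wild-type liver lay 2-fold from the reference either way. Those shares count both directions, so they are not like for like. At 8-fold the counts were 21 in TMX-null and 2 in wild-type liver, and the share over all genes on each array was not counted. Those of treated TMX-null liver included Chil3, a lectin of monocytes and macrophages, at 8.11, the AP-1 member Fosl1 at 4.78, the stress factor Atf3 at 3.77, and the chemokines Cxcl2 (3.77), Ccl4 (3.72) and Ccl12 (3.71). The highest of treated wild-type liver were Fam98b at 3.25 and Sprr4 at 3.13, with the repressor Bcl6 at 2.87. How far these genes differed between the livers is unknown. Among 3792 rows without a gene name that held values on both arrays, 303 were 2-fold higher and 400 lower.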

How the data were processed

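RNA of 3 livers was measured on 3 two-colour arrays, each against untreated wild-type liver. Per the labels' protocols, RNA was prepared with a miRNeasy kit, and amino allyl aRNA made from it was dye-coupled by a Toray protocol. The authors deposited 1 table of log ratios, taken here as log2 values. The sources used here give no numerator, log base, background correction, normalization or rule for blanks. Brightness is unknown, as the table holds no signals, and precision is limited by the number of arrays.

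The platform annotation named 16631 of 23473 rows with 1 symbol, 0 with several and left 6842 unnamed. Through the RefSeq gene table of GRCm38.p6, 12622 symbols were current, 3947 were renamed and 62 were kept. The probes of each gene were averaged (86 genes had more than 1). Each array was centred on its median over 10179 genes, which took off -0.05, -0.03 and -0.07 on the treated wild-type, untreated TMX-null and treated TMX-null arrays, and the values were subtracted. Genes were named by a rule: the 15 highest and lowest differences, the 4 highest and lowest of each of 50 lists and members whose role is described, Tmx1, the 8 closest genes among those 4-fold from the reference on both treated arrays, and the 5 largest opposite pairs each way. Genes without a full set of values were named after their values were seen. The comparison, its members and the lists were chosen with earlier results of these data known. The calculation was tested on simulated data. Python 3.11.15 with numpy 2.4.6, pandas 2.3.3 and matplotlib 3.10.9 was used.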

Additional observations from a re-analysis of the deposited data

Results flagged for a closer look

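Among all genes measured, the response to treatment (treated against untreated liver of the same genotype) was at least 2-fold and ran in opposite directions in the genotypes for 18 genes that were lower and 9 that were higher in TMX-null liver. The naming rule covers 12 of them. The values below are the response of TMX-null liver minus that of wild-type liver on the log2 scale, and each rests on 1 array per group, so the difference was not tested. Higher in TMX-null liver were Sult1e1 (6.10, from responses of -1.21 in wild-type and 4.88 in TMX-null), Bag2 (3.32), Tuft1 (3.13), Bmper (2.46), Rrp9 (2.37) and Lrp12 (2.35). Lower in TMX-null liver were Rgs16 (-5.24, from 1.02 in wild-type and -4.22 in TMX-null), Hsd3b5 (-3.53), Ugt2b37 (-3.45), Nkg7 (-3.02), Adh4 (-2.78) and Mtus1 (-2.63). Rrp9 processes ribosomal RNA, and Nkg7 is a granule protein of cytotoxic lymphocytes.

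The 5 highest genes with a value in treated TMX-null liver and a blank in treated wild-type liver lay outside the comparison. Their centred log2 ratios to untreated wild-type liver were 8.11 for Chil3, 4.78 for Fosl1, 4.69 for Cgref1, 4.68 for Bmp8b and 4.36 for Muc13. None of the 5 had a value in untreated TMX-null liver. The 799 genes valued in treated TMX-null but not in treated wild-type liver had a median of 0.80, so most lay above the reference.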

How the results depend on the processing

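Direction, log base and the 1 array per group are the main limits, and the absence of signal values leaves the reliability of single genes unknown. A change of centring adds the same amount to every difference, so each list median moved by that amount alone. The median over all genes ran from -0.012 without centring to 0.073 with centring on reference genes. Taking all genes valued on both treated arrays and taking genes with 1 probe left each list median within 1 SD of a single probe (0.59). That margin is wider than several list medians, and the T and NK cell and reference lists changed sign under some of these settings. The counts stayed within 1.5 times. Centring on reference genes gave 1111 higher and 1005 lower genes, and no centring gave 940 and 1147. The fold threshold moved the counts to 2144 higher and 2152 lower at 1.5-fold and to 134 and 227 at 4-fold. With the values read as natural logarithms, 1796 genes were higher and 1822 lower, and list medians became 3.47 for S100, 2.15 for actin, -2.15 for P450, -2.01 for steroid, -2.01 for bile acid, -2.71 for cholesterol and -2.13 for amino acid genes.

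With the same SD on both arrays 675 genes were higher and 796 lower, and after quantile normalization 743 and 735. In that order the medians were 0.88 and 1.07 for S100, 0.85 and 0.89 for actin, -0.82 and -0.77 for P450, -0.84 and -0.75 for amino acid, -0.41 and -0.32 for macrophage, 0.48 and 0.49 for monocyte, -0.0062 and 0.27 for neutrophil, 0.051 and 0.11 for stellate cell, and -0.039 and -0.031 for platelet lists, and bile acid genes had -0.78 after quantile normalization. Igfbp1 turned from 1.31 to -0.60 and -0.31, Gadd45g from 1.36 to -0.035 and Phlda3 from 1.80 to -0.016 at the same SD, and Zap70 from -1.49 to 0.23 after quantile normalization. Whether the wider spread of the treated TMX-null array is technical was not tested. No paired analysis was possible because each group has 1 array and the labels give no replicate numbers.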
